A study of Mus musculus with 2 samples.

Results

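Retinoic acid is made from vitamin A inside the lung, and the 9 genes described here cover its path from synthesis to breakdown. Aldh1a1, Aldh1a2 and Aldh1a3 encode the dehydrogenases that make retinoic acid from retinal. Rbp4 encodes the carrier of retinol in plasma, Stra6 a membrane receptor that takes retinol up from that carrier, and Crabp1 and Crabp2 the proteins that bind retinoic acid in the cytoplasm. Rarb encodes a nuclear receptor for retinoic acid, and Cyp26b1 an enzyme that breaks retinoic acid down. The members are all probe sets that the platform annotation assigns to 1 of these symbols and to no other gene, 11 of 45037 probe sets, and 9 of 18193 genes on the array.

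Whole lungs of embryonic day 18 were profiled on Affymetrix mouse arrays, with 1 array for wildtype lungs and 1 array for lungs homozygous for the Nmyc9a allele. Nmyc9a is a hypomorphic allele of Mycn, which encodes the N-Myc transcription factor. Each array was made from pooled lungs. The sources used here give no strain, sex or number of lungs per pool. With 1 array per group there is no replicate of any difference, and no test was run. A pool shows nothing of the spread between animals, and the number of arrays limits the precision.

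Retinol reaches a cell bound to its plasma carrier and is oxidised in succession to retinal and retinoic acid. Retinoic acid enters the nucleus, where it binds retinoic acid receptors that sit on DNA as partners of retinoid X receptors. Cyp26 enzymes remove it, so that neighbouring cells can hold different amounts. In the developing lung the pathway is known for its part in the formation of the lung bud and, later, of alveoli, and Aldh1a2 is known as a gene of the mesothelium, the cell layer that covers the lung.

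The receptors bind pairs of short half-sites in the same orientation, and the promoter of Rarb holds a classical element of this kind, with 5 bases between the half-sites. The first sequence shows that element in capitals as a script found it. The other promoters are printed because Cyp26b1, like Rarb, is known to be induced by retinoic acid, and because Aldh1a2 had the largest difference between the arrays among the measured members. All are the 250 bases before the start site in RefSeq on GRCm38.p6, written in the direction of transcription. They lie at chr14:16575477-16575726 on the minus strand for Rarb, at chr6:84593811-84594060 on the minus strand for Cyp26b1, and at chr9:71215539-71215788 on the plus strand for Aldh1a2.
Rarb: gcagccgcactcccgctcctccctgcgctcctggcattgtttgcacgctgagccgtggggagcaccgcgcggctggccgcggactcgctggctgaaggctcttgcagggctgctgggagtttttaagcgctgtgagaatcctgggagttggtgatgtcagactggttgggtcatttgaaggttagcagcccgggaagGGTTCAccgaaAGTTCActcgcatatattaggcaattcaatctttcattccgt
Cyp26b1: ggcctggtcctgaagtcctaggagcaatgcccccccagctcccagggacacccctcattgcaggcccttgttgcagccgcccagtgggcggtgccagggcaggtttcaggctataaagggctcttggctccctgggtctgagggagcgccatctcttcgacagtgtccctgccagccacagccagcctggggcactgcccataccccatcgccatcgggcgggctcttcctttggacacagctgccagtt
Aldh1a2: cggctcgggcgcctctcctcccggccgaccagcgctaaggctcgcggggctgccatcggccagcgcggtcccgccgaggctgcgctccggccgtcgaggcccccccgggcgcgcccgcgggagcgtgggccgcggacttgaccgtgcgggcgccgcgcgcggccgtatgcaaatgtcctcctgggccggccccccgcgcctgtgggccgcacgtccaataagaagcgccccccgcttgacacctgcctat

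Half-sites were searched on both strands, as the consensus AGGTCA and its variants (AGTTCA in some elements, GGTTCA in others and GGGTCA in yet others), in windows from 250 bases before to 50 after each start. A direct repeat was a pair of these half-sites in 1 orientation, separated by 1, 2 or 5 bases of any kind, so each repeat also counts as half-sites. In Rarb the match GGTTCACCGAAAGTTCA ran from -53 to -37 relative to the start site, at chr14:16575513-16575529. Rarb also held a lone GGGTCA at -83 to -78. The repeat with a spacing of 5 bases was found in 32 of 32851 windows (0.0974%), and in 1 of the 12 windows available for 7 of the members. No member window held a repeat with 1 base (0.222% of all windows) or 2 bases (0.268%) between half-sites. A half-site of any kind was present in 43.7% of all windows and in 4 of the 12 member windows. The Cyp26b1 and Aldh1a2 windows held none. The motif CACGTG, the E-box that Myc proteins bind, was present in 7.15% of all windows and in none of the 12. These matches describe letters in these windows only.

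Some facts of the arrays apply to every result. The array labelled Nmyc9a was scaled by a factor of 0.977, which set the median log2 ratio of probe sets at or above a floor to 0. The floor was a signal of 49.3, the 40th percentile, and a gene counted as measured when the mean signal of its brightest probe set reached it. Each sentence on a pair of signals gives the wildtype array first, and ratios are Nmyc9a over wildtype. There were 12600 measured genes. On the array labelled Nmyc9a 797 of them (6.33%) were higher by 1.5-fold or more and 1222 (9.7%) lower, and the median log2 ratio was -0.09. Log2 ratios of probe sets for the same gene had a pooled SD of 0.40 (1.32-fold) over 5671 genes, the only measure of error that these data give. It comes from the same 2 arrays and holds no spread between replicate arrays, pools or animals. Multiples of this SD are therefore no test of a difference between the groups. The lung markers Sftpc and Scgb1a1 were bright on both arrays, at 8639 and 8966 and at 3388 and 4915. Mycn itself read 66.3 and 84.8 by its brightest probe set and 51.1 and 85.4 by a second one, and its remaining probe set was below the floor. Both readings were higher on the array labelled Nmyc9a, with log2 ratios of 0.36 and 0.74, the second past 1.5-fold. Whether these probes cover the part that the allele alters is unknown, so the Mycn signal did not check the labels on which all directions rest.

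Among the measured members, both enzymes that make retinoic acid and the plasma carrier of retinol had lower signals on the array labelled Nmyc9a, while the breakdown enzyme Cyp26b1 and the receptor Rarb had higher ones. Of the 9 genes, 5 passed the floor, each of them with its signals above the floor on both arrays, and 4 lay below it on both arrays. At the 1.5-fold size 3 of the 5 were lower (Aldh1a1, Aldh1a2 and Rbp4), against 9.7% of all measured genes, and 1 was higher (Cyp26b1), against 6.33%. At 2-fold, Aldh1a2 was the only member lower, where 1.38% of measured genes were, and no member was higher, where 1.29% were. The members were chosen with earlier results of these data known, so these counts describe the genes and are not evidence about the pathway. Each measured member had 1 probe set, so no second probe set could be compared.

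**Figure D1:**
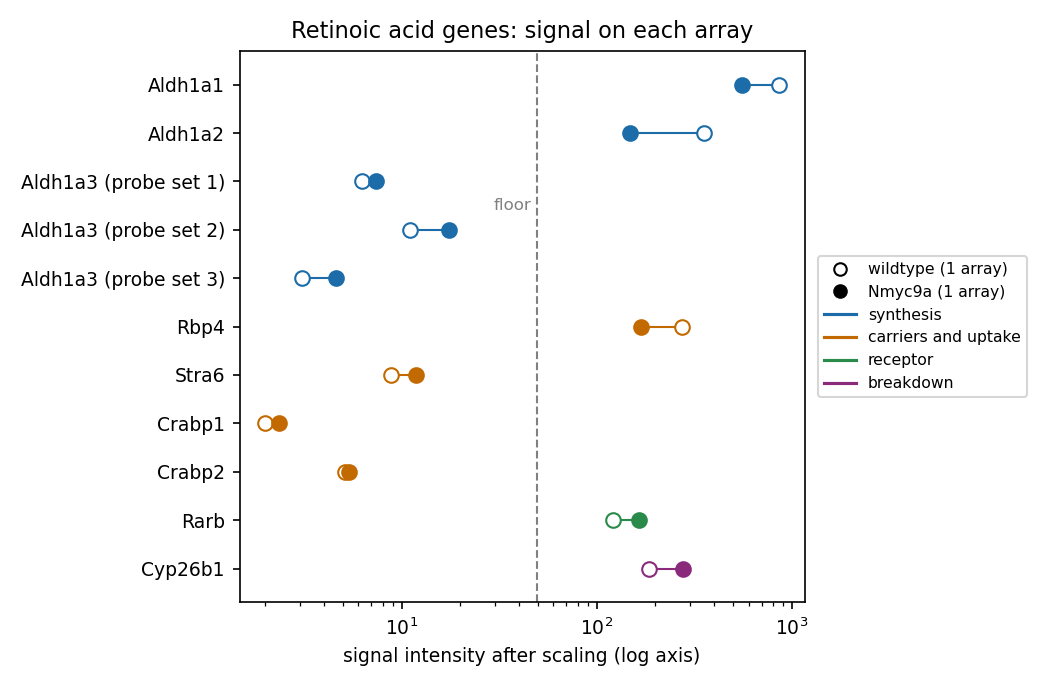
Signal intensity after scaling (log axis) of all 11 probe sets of the 9 genes, with open circles for the wildtype array, filled circles for the array labelled Nmyc9a, and colours for roles. The 5 measured genes lie right of the dashed floor of 49.3 on both arrays, and Aldh1a2 has the widest gap, from 355 to 148.

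Of the enzymes of synthesis, Aldh1a2 differed most. Its signals were 355 and 148, so Aldh1a2 was 58.4% lower with the Nmyc9a label, and its log2 ratio was -1.26, or 2.40-fold. That ratio was 3.14 times the SD between probe sets of a gene, and 43 of 12600 measured genes (0.341%) had a ratio at least as low. In whole-lung RNA, fewer cells of a type and less RNA per cell cannot be told apart. Aldh1a1, an enzyme of the same reaction that is abundant in airway epithelium, read 858 and 555, a log2 ratio of -0.63 or 1.55-fold lower. This was 1.56 times the SD between probe sets, and 1011 measured genes (8.02%) were at least as low. The Aldh1a1 ratio was under 1.5-fold after quantile normalization (-0.46), after loess on mean signal (-0.44) and when the floor was set at the 60th percentile (-0.56). The log2 ratios of Aldh1a1 and Aldh1a2 were 0.64 apart, 1.12 times the SD expected of a difference between probe sets.

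Aldh1a3, the remaining enzyme of the trio, was not detected above the floor. Its 3 probe sets read 6.3 and 7.43, 11.1 and 17.5, and 3.1 and 4.59. All 6 values lay below the floor of 49.3, so no ratio is given for Aldh1a3.

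**Figure D2:**
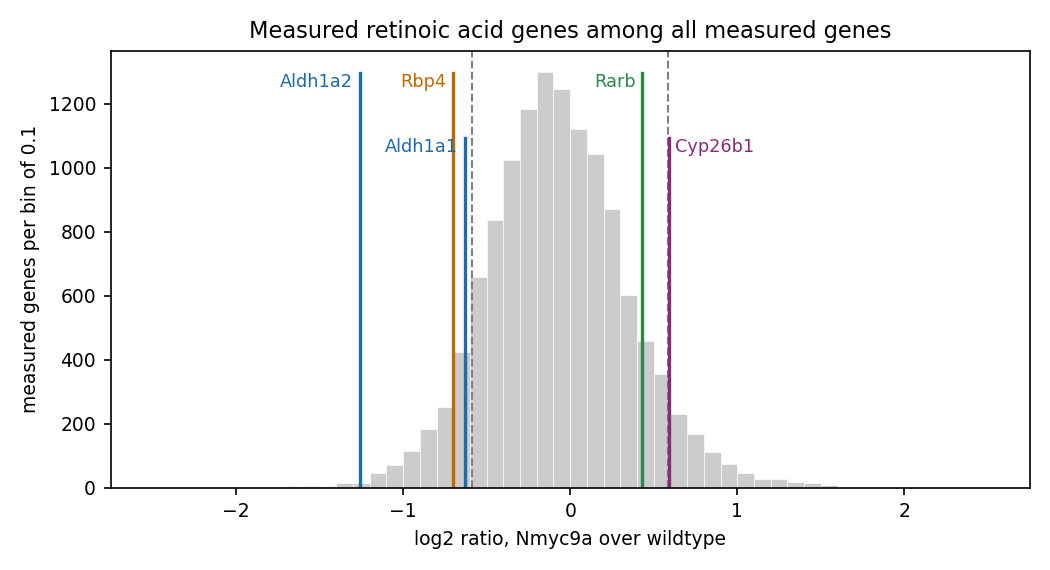
Number of measured genes per bin of 0.1 in the log2 ratio, Nmyc9a over wildtype, with values beyond 2.5 in either direction placed in the end bins; coloured lines mark the 5 measured members and dashed lines 1.5-fold. Aldh1a2 at -1.26 lies in the sparse lower tail, while Rarb at 0.43 lies inside the dashed lines.

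Among carriers, only Rbp4 was measured. Rbp4 read 274 and 169, and was 38.3% lower on the array labelled Nmyc9a. Its log2 ratio was -0.70, or 1.62-fold. This was 1.73 times the SD between probe sets, and 743 measured genes (5.90%) were at least as low. The uptake receptor Stra6 read 8.8 and 11.8, below the floor on both arrays. The binding proteins were also below it, with Crabp1 at 2 and 2.35 and Crabp2 at 5.1 and 5.38. These arrays therefore give no ratio for the step from the plasma carrier through Stra6 into the cell, or for either binding protein.

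The receptor gene Rarb was higher on the array labelled Nmyc9a by less than 1.5-fold. It read 122 and 164, 34.7% higher, a log2 ratio of 0.43 or 1.35-fold. The ratio was 1.07 times the SD between probe sets, and 1424 measured genes (11.3%) were at least as high. Which transcripts of Rarb the probe set detects is not known here, so its signal cannot be assigned to the promoter printed above.

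The breakdown enzyme gene Cyp26b1 read 185 and 278, 50.3% higher on the array labelled Nmyc9a. Its log2 ratio of 0.59, 1.5-fold, lay at the edge of the size rule and was 1.46 times the SD between probe sets. A ratio at least as high was found for 788 measured genes (6.25%). The Cyp26b1 ratio was just under 1.5-fold after quantile normalization (0.58), when the floor was set at the 20th percentile (0.55) and with a pseudocount in place of the floor (0.55). The log2 ratios of Aldh1a2 and Cyp26b1 were 1.85 apart, 3.25 times the SD expected of a difference between probe sets. Between Rbp4 and Cyp26b1 the gap was 1.28, or 2.25 times that SD, and between Aldh1a1 and Cyp26b1 it was 1.22, or 2.14 times. Rarb and Cyp26b1 differed by 0.16, or 0.278 times that SD. Aldh1a2 and Cyp26b1 had the lowest and highest ratios of the measured members. That SD comes from probe sets of the same gene, so these multiples do not test a contrast between different genes.

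**Figure D3:**
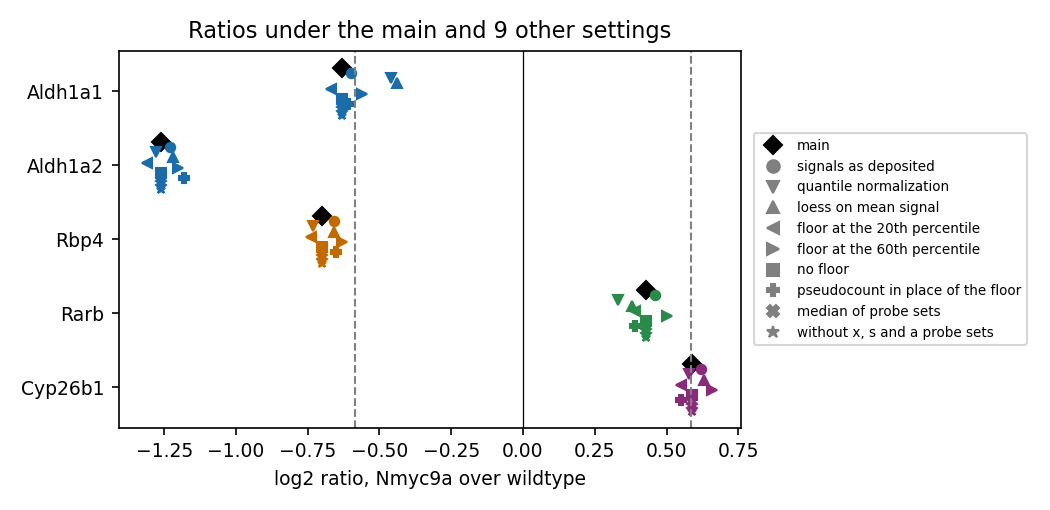
Log2 ratio, Nmyc9a over wildtype, of the 5 measured members under the main setting (black diamonds) and 9 other choices of scaling, floor and probe set (coloured symbols), with dashed lines at 1.5-fold. For these genes, no floor, the median of probe sets and leaving out probe sets by suffix had to equal the main setting. No symbol crosses 0; Aldh1a1 spans -0.67 to -0.44 and Cyp26b1 spans 0.55 to 0.66, each on both sides of a dashed line.

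Marker genes of cells that may carry these transcripts moved in different ways, and their part in the members' differences was not tested. Single markers of each cell type are named after their values were seen. For every marker list, the shares of all measured genes to set beside it were 9.7% lower and 6.33% higher at 1.5-fold. The median log2 ratio of all measured genes was -0.09. Of 8 measured mesothelium markers other than Aldh1a2, 4 were at least 1.5-fold lower, 4 were within 1.5-fold and none was 1.5-fold higher, with a median log2 ratio of -0.52. The lower markers were Krt19, a keratin found in airway epithelium too, at -1.17, Lrrn4 at -0.90, Msln, a surface protein of mesothelium, at -0.83 and Gpm6a at -0.76. The markers within 1.5-fold were Upk3b at -0.29, Upk1b at -0.12, Bnc1 at -0.10 and Muc16, below the floor on the wildtype array, at 0.34. Muc16 counted as measured only through the Nmyc9a signal, so its ratio had to be above 0. Wt1, a defining transcription factor of that layer, read 49.8 and 47.0, with a mean below the floor. The summed signal of the 9 mesothelium markers other than Aldh1a2 was 4062 and 2313, and none of them was at 0. Krt19, not particular to mesothelium, alone gave 1728 and 768.5 of these sums.

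Club cell and liver markers are set beside the members they accompany, and a link between them was not tested. Of 6 measured club cell markers other than Aldh1a1, 5 were within 1.5-fold and 1, Scgb3a1 at 352 and 732, was at least 1.5-fold higher. All 6 had a log2 ratio above 0, the lowest being Cbr2 at 0.03. Their median was 0.31, and their summed signal with the unmeasured Gsta3 was 15860 and 18410, with none at 0, whereas Aldh1a1 stood at -0.63. Of 8 measured liver markers other than Rbp4, 6 were at least 1.5-fold higher, none was lower, and the median was 1.31. Among the 8, Apoa1, Fga, Hpx and Ttr were below the floor on the wildtype array. They counted as measured only through the Nmyc9a signal, so their ratios had to be above 0. Alb, serum albumin, read 140 and 558, and the summed signal of the 12 liver markers on the array was 540 and 1663, with none at 0. Rbp4, which liver secretes in quantity, stood at -0.70, and its link to that list was not tested. Smooth muscle markers had 3 of 5 measured genes lower, none higher, a median of -0.64 and a summed signal of 4245 and 2604, none of them at 0. Proliferation markers were lower as well, 10 of 11 at least 1.5-fold, with a median of -0.95 and a summed signal of 5102 and 2508. Bub1 among the 10, at 91.6 and 25.7, counted as measured only through the wildtype signal, so its ratio had to be below 0.

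**Figure D4:**
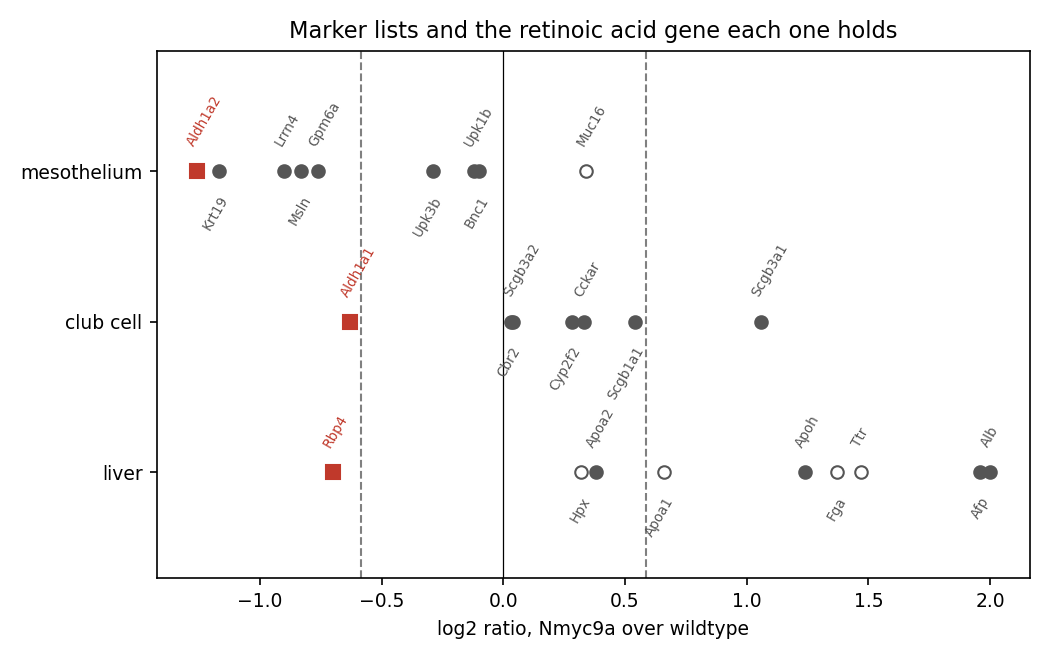
Log2 ratio, Nmyc9a over wildtype, of measured markers of mesothelium, club cells and liver (grey circles, open where 1 array is below the floor) and of the retinoic acid gene each list holds (red squares). Aldh1a2 lies below all 8 measured mesothelium markers, which run from -1.17 to 0.34, while Aldh1a1 and Rbp4 lie below 0 and every measured marker of their lists above it. Open circles mark genes that passed the floor on the Nmyc9a array alone, so they could only lie above 0.

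Genes of the wider pathway lay on both sides of 0. Of 75 further genes in lists of the same roles, 68 were on the array under their own symbol alone and 52 were measured. Of these 52, 7 were at least 1.5-fold higher, against 6.33% of all measured genes, and 3 were lower, against 9.7%. Bco1 and Ttr among the 7, and Ppard among the 3, were below the floor on 1 array. They counted as measured only through the other array, so their direction was fixed by the floor. Both counts changed with the floor, as did the shares of all measured genes. For a floor at the 20th percentile, 6 were higher and 8 lower of 62 measured, against 9.51% and 13.5% of all measured genes. Without a floor 9 and 10 of 68 were, against 13.5% and 13.6%. With a pseudocount 4 and 7 of 68 were, against 7.79% and 8.82%. In the main setting, the median log2 ratio of the 52 genes was -0.04, beside -0.09 for all measured genes.

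Among 13 measured genes of retinoid synthesis and storage, 3 were higher and 1 was lower, with a median of 0.01. Rdh11, an enzyme that interconverts retinol and retinal, read 446 and 268, a log2 ratio of -0.73, while its second probe set stood at -0.31 and the median of both at -0.52. Rdh13, a related mitochondrial enzyme, read 68.4 and 115, a ratio of 0.75 (0.57, under 1.5-fold, after quantile normalization). Bco1, which cleaves carotene to retinal, read 47.1, below the floor, and 78.4, and was at least 1.59-fold higher. Bco1 counted as measured only through the Nmyc9a signal, so its ratio had to be above 0. Its log2 ratio was under 1.5-fold after quantile normalization (0.53), loess (0.50) and with a pseudocount (0.58). Lipe, a lipase that can free retinol from its stored esters, read 53 and 103, a log2 ratio of 0.96. Genes named after their values were seen were Rdh10, the main retinol dehydrogenase of the embryo, at 163 and 121 (log2 ratio -0.43), and Dhrs3, which turns retinal back into retinol, at 311 and 304 (-0.03).

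Carriers and uptake genes included the highest ratio of the wider lists. Ttr, the plasma partner of Rbp4, read 35.1, below the floor, and 137, and was at least 2.78-fold higher, in the direction opposite to Rbp4. Ttr counted as measured only through the Nmyc9a signal. Its other 3 probe sets were not measured. Ttr is also one of the 8 liver markers above. Scarb1, a scavenger receptor that takes up lipids, read 287 and 512, a log2 ratio of 0.83, and all 3 of its probe sets were higher. The other 4 of 6 measured carriers were within 1.5-fold, the lowest being the fatty acid transporter Cd36 at -0.19. Rbp2, an intestinal retinol-binding protein named after its values were seen, read 65.9 and 14.2, with a mean below the floor.

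By their brightest probe sets, the other retinoic acid and retinoid X receptors stayed within 1.5-fold of their wildtype signal. Named after their values were seen, Rara read 112 and 131 (log2 ratio 0.23), Rarg 519 and 435 (-0.26), Rxra 244 and 215 (-0.18) and Rxrb 270 and 202 (-0.42), while Rxrg was below the floor. A second probe set of Rarg read 129 and 233, a ratio of 0.85, so the Rarg probe sets disagreed in direction. A second Rxra probe set stood at 0.22, also opposite to the brightest. Of all 15 measured receptors and coregulators, 1 was higher and 1 lower by the brightest probe set, with a median of -0.02. The higher gene was Med1, a Mediator subunit that nuclear receptors recruit, at 0.59 with 4 of 5 measured probe sets higher, and the median of those probe sets was 0.53. Med1 was also under 1.5-fold for a floor at the 20th percentile (0.55) and with a pseudocount (0.58). The lower gene was Ppard, a nuclear receptor to which Fabp5 can deliver retinoic acid. Ppard was at least 1.54-fold lower, with 75.9 on the wildtype array and 33.8, below the floor, on the Nmyc9a array. It counted as measured only through the wildtype signal, so its ratio had to be below 0. Some coregulators counted as within 1.5-fold had another probe set past it, namely Nrip1 (1.7), Ncoa2 (1.27 and 0.71), Ncoa1 (0.9) and Kat2b (0.71). Of their measured probe sets, 3 of 6 were lower for Nrip1, 2 of 3 for Kat2b and none for Ncoa1 or Ncoa2.

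Other breakdown enzymes gave little beside Cyp26b1. Cyp2s1, a further P450 enzyme, read 354 and 363, a log2 ratio of 0.04. Cyp26a1, the best known relative of Cyp26b1 and named after its values were seen, read 53.5 and 15, with a mean below the floor, so it gave no measured ratio.

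Of 17 measured genes known to be induced by retinoic acid in other settings, 15 were within 1.5-fold by their brightest probe sets. Among the 17, 13 had a log2 ratio below 0, as did 58.7% of all measured genes, and 4 above. Hoxa4, 1 of the 13, read 67.1 and 43.3, the second below the floor, so its ratio had to be below 0. Of the 13, other measured probe sets were past 1.5-fold higher for Rai14 (1.3 and 0.86), Meis2 (1.24) and Gata6 (0.76). They were above 0 for Plat (0.39), Tbx5 (0.35), Rarres2 (0.13) and Tgm2 (0.09). Measured probe sets that were lower numbered 2 for Rai14 and Rarres2, 4 for Tgm2 and 1 for each other gene named. Other probe sets of Meis1 and Rai1, both of the 4, stood at 0.81. In this list 1 was at least 1.5-fold lower and 1 higher, and the median was -0.19, beside -0.09 for all measured genes. Hoxa5, a Hox gene of lung mesenchyme, read 787 and 522, a ratio of -0.59. Its other probe set read 390 and 455 (0.22), and the median of both was -0.19. The Hoxa5 ratio was also under 1.5-fold as deposited (-0.56), after quantile normalization (-0.43) or loess (-0.41), with a pseudocount (-0.58) and for a floor at the 60th percentile (-0.52). Btg2, a gene that restrains proliferation, read 713 and 1071, a ratio of 0.59, with its other probe set at 0.29. The median of both was 0.44, under 1.5-fold, as was Btg2 for a floor at the 20th percentile (0.55) and with a pseudocount (0.58).

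**Figure D5:**
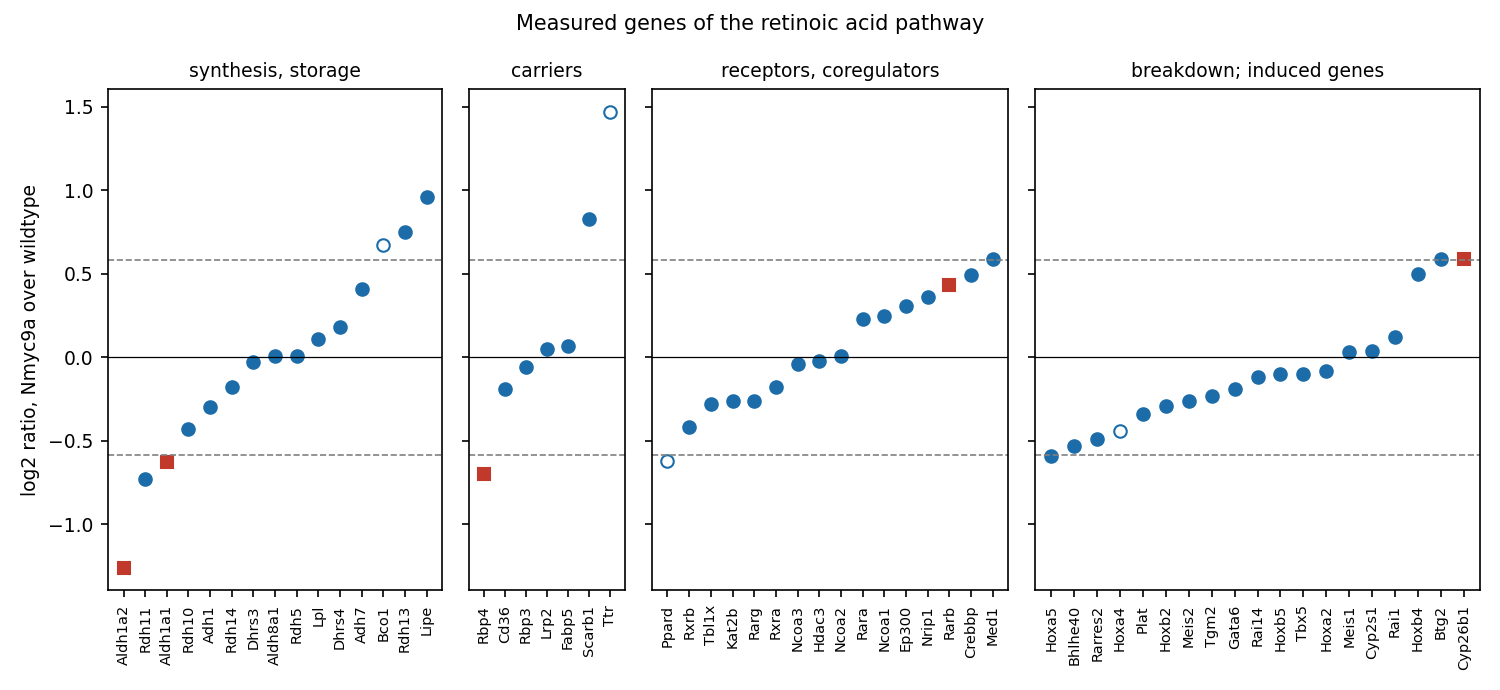
Log2 ratio, Nmyc9a over wildtype, of measured genes by role, with red squares for the members, blue circles for the other genes (open where 1 array is below the floor), and dashed lines at 1.5-fold. Each gene is shown by its brightest probe set. Most genes lie between the dashed lines, and Aldh1a2 at -1.26 and Ttr at 1.47 are the ends of the range.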

How the data were processed

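Total RNA from pooled whole lungs was extracted with Trizol and an RNeasy kit and labelled with biotin, per the labels' protocols. The deposited values are 1 signal intensity per probe set and array on a linear scale. The sources used here do not give the software, background correction or scaling behind this intensity.

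After 64 control probe sets were set aside, the array labelled Nmyc9a was multiplied by 0.977 (a log2 shift of 0.03), and log2 ratios were taken after raising values below 49.3 to that floor. A ratio against a raised value is a bound. Of 34945 probe sets with 1 symbol, 34741 were matched to RefSeq (GRCm38.p6) by Entrez identifier. A further 932 that named several genes were not used. Each gene took its brightest probe set. Genes were counted at 1.5-fold, without a test.

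Named genes were all members, and in the wider lists every gene past 1.5-fold and the highest and lowest of each; others, marked in the text, were named after their values were seen. The members and lists were chosen with earlier results of these data known. Marker lists are summarised without the member they hold. Lists of lipofibroblasts (1 of 6 measured genes higher, none lower), distal and type 2 epithelium (1 of 9 lower, none higher) and nerve and glia (none of 5 past 1.5-fold) were also summarised. Promoter windows came from RefSeq (GRCm38.p6), which matched 7 of 9 members. Alternatives were the values as deposited, quantile normalization, loess (span 0.3), floors at the 20th and 60th percentile, no floor (values under 1 raised to 1), a pseudocount of 16, the median of probe sets, leaving out probe sets ending in _x_at, _s_at or _a_at, and a 2-fold size. The scripts were tested on simulated data and run with Python 3.11.15, numpy 2.4.6, pandas 2.3.3 and statsmodels 0.14.6.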

Additional observations from a re-analysis of the deposited data

How the results depend on the processing

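With 1 array per group, no alternative could leave out a replicate. No paired analysis was possible because each group held 1 array. All 5 measured members kept their direction under the 9 alternatives of scaling, floor and probe set. For these 5 genes, no floor, the median of probe sets and leaving out probe sets by suffix had to return the main ratio. Each gene had 1 probe set without such a suffix, above the floor on both arrays. The counts of alternatives that follow include these settings, which could not differ from the main one. Aldh1a2 (-1.31 to -1.18) and Rbp4 (-0.74 to -0.63) stayed past 1.5-fold in all 9, Aldh1a1 (-0.67 to -0.44) and Cyp26b1 (0.55 to 0.66) in 6, and Rarb (0.33 to 0.50) in none. The count of members at least 1.5-fold lower was 3, or 2 after quantile normalization, loess or a floor at the 60th percentile, and 1 was at least 2-fold lower. The count of members higher was 1, but 0 after quantile normalization, with the floor at the 20th percentile, with a pseudocount and at 2-fold. It was 2 without a floor, where all 9 members count as measured. The gene added there was Aldh1a3, at 11.1 and 17.5, both below the floor of the main setting. Of the wider pathway, 3 genes were lower, against 8 for a floor at the 20th percentile, 1 at the 60th, 10 without a floor, 7 with a pseudocount, 1 by the median of probe sets and 0 at 2-fold. The 7 higher of 52 pathway genes became 3 of 42 with the floor at the 60th percentile, 4 of 68 with a pseudocount and 1 of 52 at 2-fold. Of all measured genes, 5.13%, 7.79% and 1.29% were higher at these settings, against 6.33%. The share higher was 5.1% after quantile normalization, 9.51% for a floor at the 20th percentile and 13.5% without a floor. Of all measured genes, 13.5% were lower for a floor at the 20th percentile, 6.87% at the 60th, 13.6% without a floor, 8.82% with a pseudocount and 7.83% by the median of probe sets, against 9.7%. The share lower was 10.9% after quantile normalization, 9.59% after loess and 1.38% at 2-fold. Lower floors and no floor count more pathway genes as measured (62 and 68 against 52). Aldh1a3, Stra6, Crabp1 and Crabp2 have signals too low for a ratio above the floor.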
